A study of Mus musculus with 6 samples.

Results

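The immediate early genes and the genes that answer to NF-kB were followed in red cell precursors of mice with a mutant ribosomal protein gene. The set holds 42 named genes and was given as a list of symbols. It was taken from the array by every probe set annotated to 1 of these symbols alone, which found 40 genes and 63 probe sets among 12393 genes and 22626 probe sets, while Dusp5 and Cd69 had no such probe set and were not analysed here. All 40 were tested, since no filter on low values was applied. The cells were erythroblasts taken from marrow by sorting for CD71 (the receptor for transferrin), and each sample was read on 1 Affymetrix array. The groups were 3 wild type samples and 3 samples from mice with a transgene for RPS19R62W, a mutant form of a small ribosomal subunit protein, all of the FVB/N strain. The title places the work in Diamond-Blackfan anaemia, in which too few red cells are made, and the comparison asks how mutant and wild type erythroblasts differ. The sources used here do not give age, sex, the promoter of the transgene or the number of founder lines. Whether a group's 3 samples were different animals is not stated, and p-values therefore reflect sample-to-sample spread that could be technical. The description tag of mutant replicate 1 begins with the letter J and those of mutant replicates 2 and 3 with K, while the wild type samples share a tag.

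Immediate early genes are transcribed within minutes of a stimulus without new protein synthesis, through factors such as SRF and CREB that are already in the cell. Many of their products are transcription factors (Fos, Jun, Egr1), and others are phosphatases and RNA-decay proteins that end the response. NF-kB dimers are held in the cytoplasm by IkB proteins until a signal destroys these, and NF-kB then switches on genes for cytokines and chemokines along with those for its own inhibitors Nfkbia and Tnfaip3. In bone marrow such genes are known to be induced in myeloid cells, and cell isolation itself can induce them.

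The DNA upstream of some members is shown first, as background to the list. Of the 40 genes, 31 had a promoter in a RefSeq table of the GRCm38.p6 mouse assembly, and the 250 bases before each start were searched on both strands for the consensus sites of NF-kB and SRF (the CArG box), for the CREB site TGACGTCA and for the AP-1 site TGANTCA. An NF-kB match stood upstream of 9 of the 31 genes (29.0%), against 5.47% of 9887 tested genes with a promoter in the table and 4.46% of all 27025 genes in it. These 9 were Nfkbia, Tnfaip3, Nfkbie, Rel, Cxcl2, Ier3, Fos, Fosb and Fosl2, and they include all 4 genes for NF-kB subunits and inhibitors that had a promoter. The list was made in part of genes that answer to NF-kB, so a high share follows from its making. It is not a result of these data. A CArG box stood upstream of 2 members (Egr2 and Zfp36; 6.45% against 1.6% of the tested genes), the CREB site upstream of Dusp1 alone (3.23% against 2.53%) and an AP-1 match upstream of Nfkbie and Tnfaip3 (6.45% against 6.84%). Egr1, Egr3, Ier2, Klf10, Zfp36l2, Relb, Nfkbiz, Ccl4 and Rgs1 had no promoter in the table and were not searched, which limits these shares. The 160 bases before the start are printed for 6 of the 9 genes with an NF-kB match. They are also printed for Zfp36 and Dusp1, whose matches are of the other kinds. The matches of Fos, Fosb and Fosl2 lie further upstream than 160 bases. Whether a match went with a gene's values on the arrays was not tested. Some examples were chosen after their values were seen. On mutant array 1 Nfkbia and Ier3, with an NF-kB match, stood 1.95 and 2.19 above the wild type mean (log2). Fosl2, also with one, stood at -0.03, while Atf3 and Dusp6, without any match, stood at 2.42 and 2.01. Capitals mark every match, of NF-kB unless stated.
Nfkbia, chr12:55492648-55492807, minus strand: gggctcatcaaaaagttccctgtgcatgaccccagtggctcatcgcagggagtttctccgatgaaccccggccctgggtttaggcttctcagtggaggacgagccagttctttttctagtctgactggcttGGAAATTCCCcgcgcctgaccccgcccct
Tnfaip3, chr10:19015411-19015570, minus strand: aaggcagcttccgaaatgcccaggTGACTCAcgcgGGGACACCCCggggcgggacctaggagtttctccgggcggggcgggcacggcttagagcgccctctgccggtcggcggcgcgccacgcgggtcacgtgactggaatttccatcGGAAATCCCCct
Nfkbie, chr17:45555540-45555699, plus strand: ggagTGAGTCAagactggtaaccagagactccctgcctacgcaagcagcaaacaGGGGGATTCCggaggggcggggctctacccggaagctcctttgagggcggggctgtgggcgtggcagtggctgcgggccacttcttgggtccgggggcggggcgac
Rel, chr11:23770970-23771129, minus strand: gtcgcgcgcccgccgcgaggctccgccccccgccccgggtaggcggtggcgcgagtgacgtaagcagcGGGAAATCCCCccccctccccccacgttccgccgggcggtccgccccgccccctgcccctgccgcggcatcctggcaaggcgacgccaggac
Cxcl2, chr5:90903739-90903898, plus strand: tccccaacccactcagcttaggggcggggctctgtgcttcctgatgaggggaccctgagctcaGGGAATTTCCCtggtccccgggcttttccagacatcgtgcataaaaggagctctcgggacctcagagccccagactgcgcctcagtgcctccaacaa
Ier3, chr17:35821553-35821712, plus strand: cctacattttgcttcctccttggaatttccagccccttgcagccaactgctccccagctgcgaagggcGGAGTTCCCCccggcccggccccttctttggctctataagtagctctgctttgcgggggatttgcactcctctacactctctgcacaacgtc
Zfp36, chr7:28379229-28379388, minus strand: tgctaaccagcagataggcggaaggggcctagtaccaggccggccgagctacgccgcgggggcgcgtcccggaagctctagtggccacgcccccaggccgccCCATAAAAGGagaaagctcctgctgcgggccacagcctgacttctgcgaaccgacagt
Dusp1, chr17:26508473-26508632, minus strand: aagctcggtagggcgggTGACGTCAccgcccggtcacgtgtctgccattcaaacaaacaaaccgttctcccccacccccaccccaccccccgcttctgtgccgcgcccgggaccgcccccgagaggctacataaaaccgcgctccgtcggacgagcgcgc
In Tnfaip3 and Nfkbie the match of 7 bases nearest the 5' end is the AP-1 site, and Tnfaip3 holds 2 NF-kB matches. In Rel and Cxcl2 a pair of overlapping NF-kB matches, shifted by 1 base, forms the capitals. The capitals of Zfp36 are the CArG box and those of Dusp1 the CREB site. A match is a description of these letters, not of a bound site.

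The arrays of the mutant group stood apart from each other and, in the control probe sets, from the wild type arrays, which touches every result below. Over all genes, pairs of wild type arrays differed with an SD of 0.14 to 0.18 (log2) and pairs of mutant arrays with an SD of 0.34 to 0.51. Spiked polyadenylated controls, added to the RNA before labelling, read 8.74 to 8.77 in wild type samples and 11.58, 13.43 and 13.47 on mutant arrays 1, 2 and 3 (mean log2, exact permutation p = 0.1, two-sided, the smallest that 3 against 3 allows). Hybridisation controls read 9.29 to 9.41 in wild type samples and 10.29, 10.40 and 10.72 on the mutant arrays (mean log2, exact permutation p = 0.1). The 3' minus 5' difference of the Actb control probe sets, a sign of RNA quality, was 1.31 ± 0.054 (log2, SD, n = 3) for wild type against 1.70 ± 0.16 for mutant arrays (n = 3, exact permutation p = 0.1), and that of Gapdh was -0.066 ± 0.019 and 0.27 ± 0.032 (exact permutation p = 0.1). In each of these controls the groups did not overlap, so sample processing and genotype cannot be told apart in the group differences. Of 9 erythroid marker genes 7 were measured and 0 were called by limma over 1 probe set per gene. Over all probe sets 1 each of Tfrc and Slc4a1 was called (2.33% of all probe sets). Tfrc, which encodes CD71, read 12.12 to 12.15 in wild type samples and 11.45, 11.99 and 11.96 on the mutant arrays, and the erythroid factor Klf1 read 11.54 to 11.74 against 10.74, 11.34 and 11.68, whereas the probe set that stood for Hba-a1 read 2.87 to 3.27 on all 6 arrays. In such bulk samples fewer cells of a type and less RNA per cell cannot be told apart.

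No member passed the test for a group difference, and the mutant samples lay on opposite sides of the wild type level. By limma with Benjamini-Hochberg adjustment over all 12393 genes, 0 of the 40 members passed an adjusted p of 0.05, against 0.331% of all genes (0.178% higher and 0.153% lower in the mutant). At an unadjusted p under 0.05 there were 2 members (Dusp2 and Nfkbie), against 17.4% of all genes. Over all 22626 probe sets 0 of the 63 member probe sets were called, against 2.33%, and 4 had an unadjusted p under 0.05, against 19.1% of all probe sets. The median difference over the members was -0.05 on the log2 scale, and that over all genes was -0.004. It ran from -0.40 to 0.22 when 1 array was left out, and was -0.14 over the 26 members brighter than the median gene and -0.12 with median centring. Groups did not overlap in 4 members, against 24.7% of all genes. Of these, Dusp2 and Nfkbie were higher and Nr4a2 and Il1b lower in the mutant.

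Array by array the members moved widely. On mutant array 1 their median stood 0.90 above the wild type mean (log2), with 36 of 40 above every wild type array (34.8% of all genes) and 17 at least 2-fold above the wild type mean (1.77% of all genes). On mutant array 3 the median stood at -0.55 (-1.09 over the 26 members brighter than the median gene; the others are called dim here), with 32 of 40 below every wild type array (33.3% of all genes) and 16 at least 2-fold below (1.19%). Mutant array 2 lay between, at a median of -0.25 (-0.39 over the brighter members), with 26 members below every wild type array (38.4%), 9 above (35.5%) and 7 at least 2-fold below (0.42%). In the opposite directions, 3 members were below every wild type array on array 1 (41.3%) and 3 above on array 3 (38.9%). No member was at least 2-fold lower on array 1 (0.557% of all genes) or higher on array 3 (0.468%), and Dusp2 alone was at least 2-fold higher on array 2 (1.28%). The median over all genes was -0.03, -0.01 and 0.02 on the 3 arrays. Of the 63 member probe sets, 52 were above every wild type array on array 1 (33.1% of all probe sets). On array 3, 53 were below every wild type array (34.8%). For 22 members array 1 lay above and arrays 2 and 3 below all wild type arrays, an arrangement shown by 4.95% of all genes, and for 32 array 1 was above array 2 and array 2 above array 3 (18.3%). Array 1 was the highest of all 6 arrays for 35 members (22.7%) and array 3 the lowest for 28 (17.7%).

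**Figure D1:**
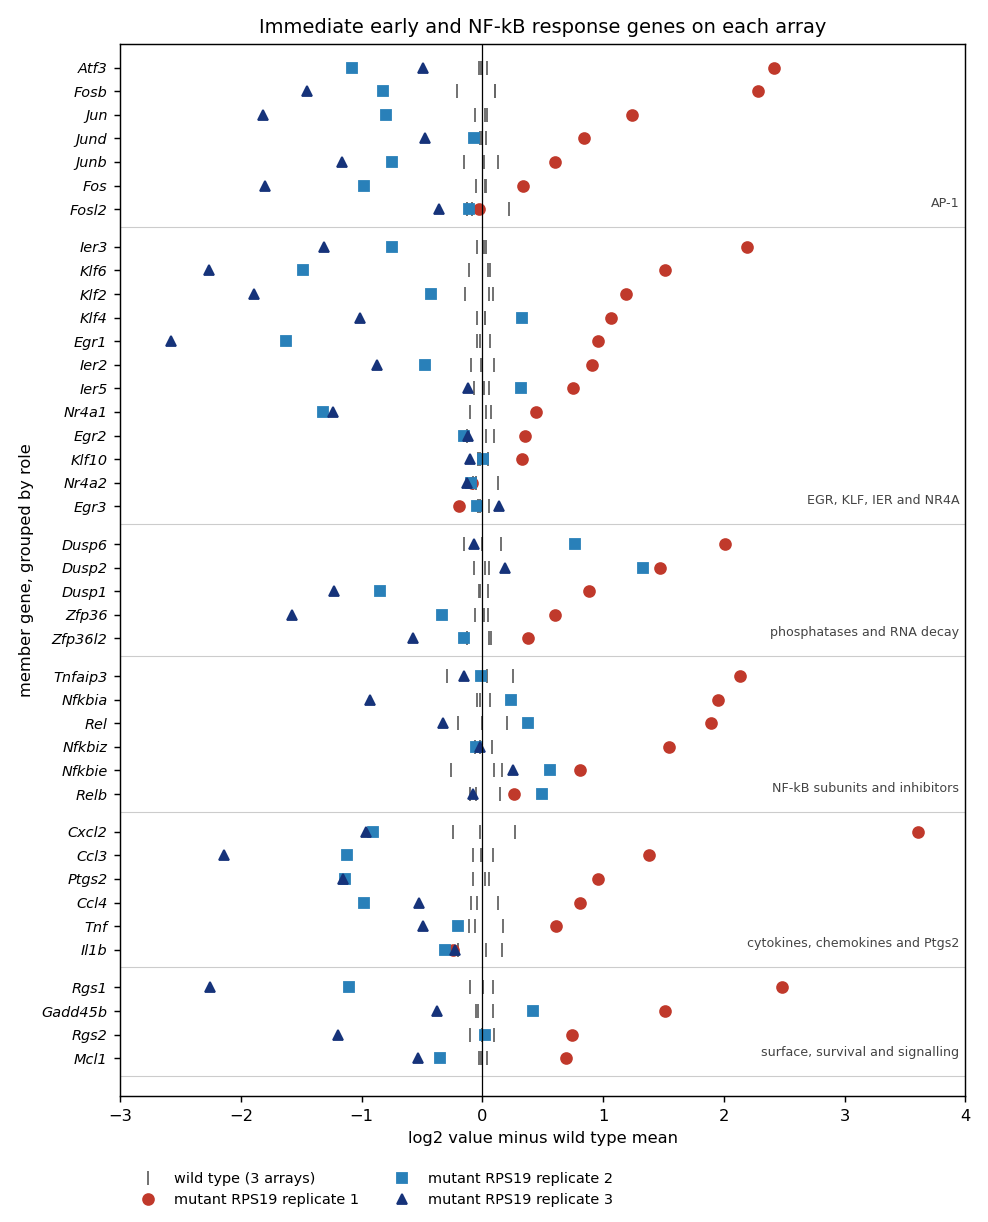
Log2 value of each of the 40 measured members on each array, minus the mean of the 3 wild type arrays, grouped by role (grey ticks: wild type; circle, square and triangle: mutant replicates 1, 2 and 3). The wild type ticks cluster near 0, 36 circles lie to the right of every tick of their gene, and 32 triangles lie to the left.

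The members made up 7.76% of the 219 genes at least 2-fold above wild type on mutant array 1, 13.5% of the 52 genes at least 2-fold below on array 2 and 10.8% of the 148 genes at least 2-fold below on array 3. They also spread more within the mutant group than most genes did. The median SD of a member was 0.09 over the wild type arrays and 0.99 over the mutant arrays, against 0.09 and 0.18 for all genes. The mutant SD passed 1 for 19 of 40 members and for 0.968% of all genes. Among 12393 genes the SD of Cxcl2 had rank 5, that of Rgs1 rank 6, that of Fosb rank 7, that of Klf6 rank 8 and that of Ier3 rank 9. The probe sets of Cxcl2 and Fosb were dim.

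**Figure D2:**
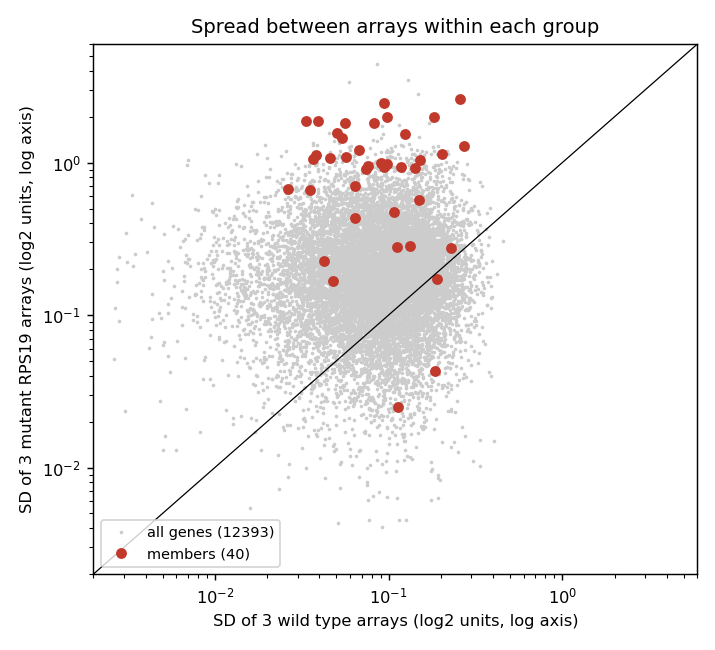
SD of the 3 mutant arrays against the SD of the 3 wild type arrays for each gene, both in log2 units on log axes (grey: all 12393 genes; red: the 40 members; line: equal SD). The SD was larger in the mutant group for 37 members, and 19 members lie above an SD of 1.

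The AP-1 genes encode the Fos and Jun proteins that pair to form the AP-1 factor, and Atf3, a stress-induced relative. Fos read 11.33, 11.34 and 11.25 in wild type samples and 11.64, 10.32 and 9.51 on mutant arrays 1, 2 and 3. Array 1 was thus above all wild type values and arrays 2 and 3 below them, array 3 by 3.48-fold, and the group difference of -0.82 ± 0.47 (log2, SE) was not called (adjusted p = 0.43, limma). Of the other members of this role, chosen for description after their values were seen, Atf3 read 5.48 to 5.55 in wild type samples and 7.93, 4.43 and 5.01 on the mutant arrays. Its probe set was dim. Fosb read 5.02 to 5.34 in wild type and 7.51, 4.41 and 3.78 in mutant samples, and Jun 8.82 to 8.91 against 10.12, 8.08 and 7.06. In both, array 1 lay above and arrays 2 and 3 below all wild type arrays. Group differences were 0.002 for Fosb (-0.01 when quantile normalisation was repeated without controls and -0.07 with median centring), -0.46 for Jun, 0.28 for Atf3, -0.44 for Junb, 0.10 for Jund and -0.17 for Fosl2. Of the 7 genes, 6 lay above all wild type arrays on array 1, and Fosl2 did not. On array 2, 6 lay below and on array 3 all 7 did.

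The zinc finger factors of the EGR and KLF families, the IER genes and the nuclear receptors NR4A numbered 12. Egr1, a growth-factor-induced activator, read 7.80, 7.72 and 7.69 in wild type samples and 8.70, 6.11 and 5.16 on mutant arrays 1 to 3. On array 3 it was 5.96-fold below the wild type mean, the gene of rank 8 from the lowest on that array, while on array 1 it was 1.94-fold above. Its group difference was -1.08 ± 0.78 (adjusted p = 0.54). Klf6 read 7.12, 7.10 and 6.94 in wild type samples and 8.57, 5.56 and 4.78 in mutant samples (-0.75 ± 0.86, adjusted p = 0.70). All 3 of its probe sets were above wild type on array 1 and below on arrays 2 and 3, while their group differences ran from -0.75 to 0.36. Nr4a1 read 6.46, 6.64 and 6.59 in wild type and 7.01, 5.24 and 5.33 in mutant samples (-0.70 ± 0.43, adjusted p = 0.46). Array 1 was above all wild type values and arrays 2 and 3 below them.

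Ier2, a nuclear protein gene of this class, read 8.78, 8.67 and 8.59 in wild type and 9.59, 8.21 and 7.81 in mutant samples (-0.14 ± 0.41, adjusted p = 0.90). Ier3, a survival gene that NF-kB also induces, was chosen after its values were seen and read 5.80 to 5.87 in wild type samples and 8.03, 5.10 and 4.53 on the mutant arrays. Klf2, known from quiescent lymphocytes and endothelium and likewise chosen after its values were seen, read 7.88 to 8.11 against 9.21, 7.59 and 6.13. In all 3 genes array 1 was highest and array 3 lowest. Group differences were 0.04 for Ier3 (-0.02 with median centring), -0.37 for Klf2, 0.12 for Klf4, 0.08 for Klf10, 0.32 for Ier5, 0.03 for Egr2 (-0.04 with median centring), -0.03 for Egr3 and -0.10 for Nr4a2. The probe sets that stand for Egr2, Egr3, Nr4a2 and Klf10 were at most 0.35 from the wild type mean on every mutant array. The other Egr2 probe set stood 0.88 above it on array 1, and both Egr2 probe sets were dim. The 3 probe sets of Ier5 disagreed on array 1. The one that stands for the gene was 0.75 above the wild type mean, and the others were at -0.24 and -0.15. The role as a whole had 10 of 12 genes above all wild type arrays on array 1, 9 below on array 2 and 10 below on array 3.

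The phosphatases of the DUSP family switch off MAP kinases, and Zfp36 and Zfp36l2 bind AU-rich messenger RNA and speed its decay. Dusp2 read 6.37, 6.46 and 6.50 in wild type samples and 7.91, 7.78 and 6.63 on mutant arrays 1 to 3. All mutant values were above all wild type values, by 2.77-fold on array 1 and 1.14-fold on array 3, and the difference of 0.996 ± 0.31 was not called (adjusted p = 0.18). Dusp6, which acts on ERK, read 5.73, 5.57 and 5.42 in wild type and 7.58, 6.34 and 5.51 in mutant samples (0.90 ± 0.46, adjusted p = 0.37). Array 3 lay among the wild type values and the other mutant arrays above them. Dusp1 read 9.98, 9.92 and 9.91 in wild type and 10.82, 9.09 and 8.71 in mutant samples (-0.39 ± 0.49, adjusted p = 0.72), so that it went with Fos rather than with Dusp2 and Dusp6 on arrays 2 and 3. Group differences were -0.44 for Zfp36 and -0.12 for Zfp36l2, and array 3 was below all wild type arrays in both. The 3 probe sets of Zfp36l2 disagreed on array 1, where 1 was above the wild type mean and 2 below it. A dim one was lower on all mutant arrays than on any wild type array and came nearest of the 63 to a call (-0.51 ± 0.10, adjusted p = 0.056 over all probe sets, limma).

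**Figure D3:**
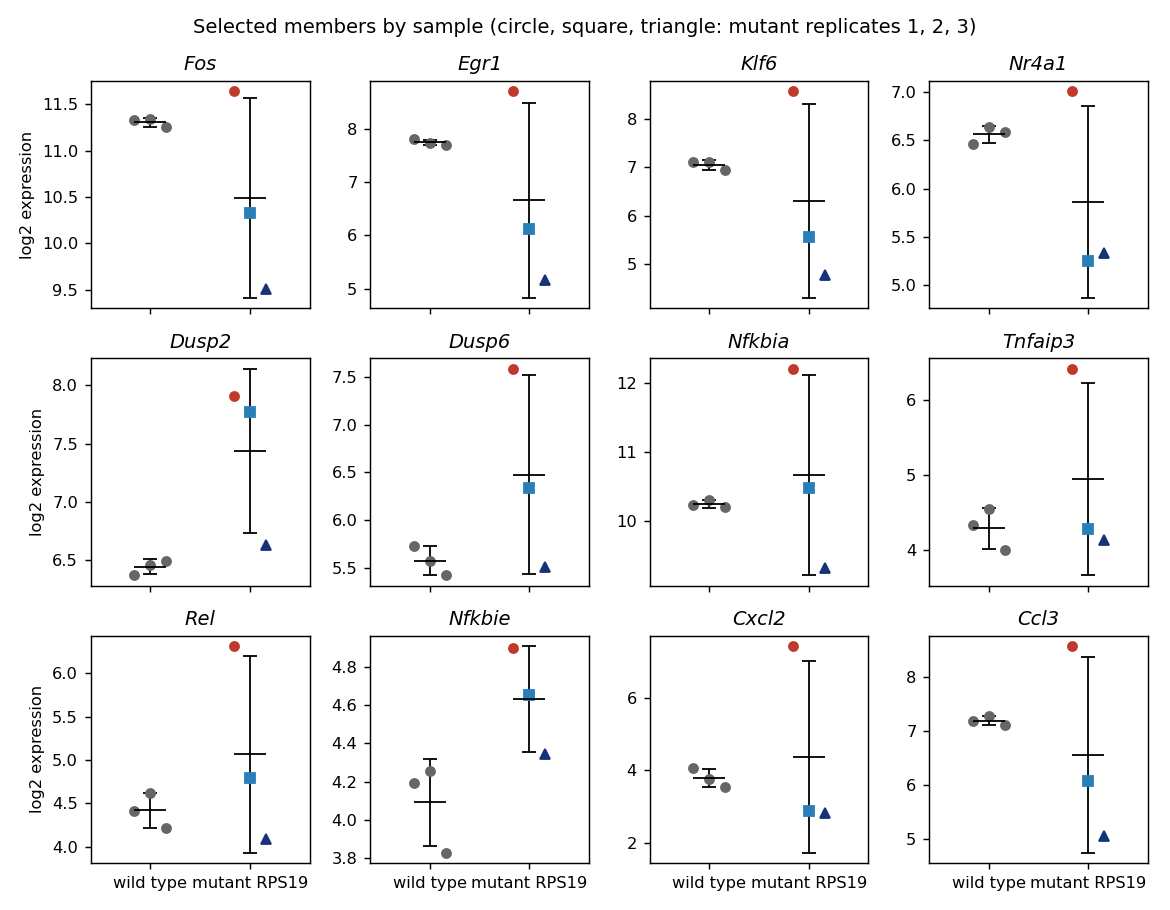
Log2 expression of 12 members in wild type samples (grey) and in mutant RPS19 replicates 1, 2 and 3 (red circle, blue square and dark triangle), with group mean and SD of 3 samples as bars. Mutant replicate 1 is the highest point in all 12 panels, and replicates 2 and 3 lie below the wild type points for Fos, Egr1, Klf6, Nr4a1, Cxcl2 and Ccl3.

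The genes for NF-kB subunits and for its inhibitors numbered 6, and all 6 were above every wild type array on array 1, at a median of 1.72 above the wild type mean. On array 2 none were below all wild type arrays and 4 were above (median 0.31), and on array 3 2 were below and 1 above (median -0.11). The medians of the 7 AP-1 genes were 0.84, -0.80 and -1.17 on the same arrays, and the difference between the roles was not tested. Nfkbia, which encodes the inhibitor IkB-alpha, read 10.23, 10.31 and 10.20 in wild type samples and 12.20, 10.48 and 9.32 in mutant samples (0.42 ± 0.62, adjusted p = 0.78). All 4 of its probe sets were above the wild type mean on arrays 1 and 2 and below it on array 3, and on array 1 they stood 1.95 to 2.60 above it. On array 3 1 of them stayed within the wild type range, at 5.713 against 5.711 to 5.795.

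Tnfaip3, the ubiquitin-editing enzyme A20 that ends NF-kB signalling, read 4.32, 4.54 and 3.99 in wild type and 6.42, 4.27 and 4.13 in mutant samples (0.65 ± 0.56, adjusted p = 0.61). Rel, a subunit of lymphoid and myeloid cells, read 4.41, 4.62 and 4.22 against 6.31, 4.797 and 4.09 (0.65 ± 0.50, adjusted p = 0.56). In Tnfaip3 array 1 alone left the wild type range. The probe sets of both genes were dim. Nfkbie, which encodes IkB-epsilon, read 4.19, 4.25 and 3.83 in wild type and 4.90, 4.66 and 4.34 in mutant samples. Its groups did not overlap, yet the difference of 0.54 ± 0.17 was not called (adjusted p = 0.18). Nfkbiz, a nuclear IkB protein, differed by 0.49 and Relb by 0.23. On array 3 the probe set that stands for Nfkbiz was at -0.02 from the wild type mean and its other probe set at -1.67.

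Of the secreted factors and the prostaglandin enzyme Ptgs2, Cxcl2 had the widest range. This neutrophil-attracting chemokine read 4.06, 3.77 and 3.55 in wild type samples and 7.41, 2.89 and 2.83 on mutant arrays 1 to 3. Array 1 was above all wild type values and arrays 2 and 3 below them, and the group difference of 0.58 ± 1.13 was not called (adjusted p = 0.84). The wild type values and the lower mutant values of this dim probe set were not shown to be above background, so no fold is given. The macrophage chemokine gene Ccl3 read 7.18, 7.27 and 7.11 in wild type and 8.57, 6.07 and 5.05 in mutant samples (-0.62 ± 0.78, adjusted p = 0.73). The group differences of the others were -0.23 for Ccl4, -0.44 for Ptgs2, -0.03 for Tnf and -0.26 for Il1b. Ccl4, Ptgs2 and Tnf were above all wild type arrays on array 1 and below them on arrays 2 and 3. The 2 probe sets of Ptgs2 disagreed on array 1. The one that stands for the gene was dim, and its values of 2.86 and 2.85 on arrays 2 and 3 were not shown to be above background. Il1b, the interleukin-1 beta gene, was chosen after its values were seen and read 4.90, 5.13 and 5.26 in wild type and 4.86, 4.79 and 4.87 in mutant samples.

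The remaining members act at the membrane, in signalling and in survival. Gadd45b, a stress sensor, read 6.08, 5.94 and 5.96 in wild type and 7.502, 6.41 and 5.62 in mutant samples (0.52 ± 0.41, adjusted p = 0.58). Mcl1, an anti-apoptotic relative of Bcl2, read 10.59, 10.66 and 10.61 against 11.31, 10.27 and 10.08 (-0.07 ± 0.29, adjusted p = 0.94). The 3 probe sets of Gadd45b disagreed on array 1, with 2 above the wild type mean. All 6 probe sets of Mcl1 were above the wild type mean on array 1 and below on array 3. Rgs1 and Rgs2 encode proteins that speed the switching-off of G protein signals. Rgs1, chosen after its values were seen, read 5.997 to 6.18 in wild type and 8.58, 4.99 and 3.84 in mutant samples, 5.598-fold above the wild type mean on array 1. Its value on array 3 was below all wild type values but was not shown to be above background, so no fold is given there. The group differences were -0.29 for Rgs1 and -0.14 for Rgs2.

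Each array was left out in turn, and the count of members called moved most without mutant replicate 1. That array was the highest of all 6 for 35 members, so leaving it out lowers their differences by construction. The calls without it describe mutant arrays 2 and 3 and are no separate support for a group difference. Without it, in a fit of 2 mutant against 3 wild type arrays, 17 of 40 members fell by limma (adjusted p under 0.05), against 3.7% of all genes, and 0 rose, against 5.84%. The median difference was -0.40, and that over all genes was -0.003. Egr1 fell by 2.10 ± 0.24 (log2, SE, adjusted p = 0.0061), Klf6 fell by 1.88 ± 0.21 (adjusted p = 0.0059), Nr4a1 fell by 1.28 ± 0.099 (adjusted p = 0.0021) and Ptgs2 fell by 1.14 ± 0.092 (adjusted p = 0.0022). Fos fell by 1.39, Jun fell by 1.31, Junb fell by 0.96, Fosb fell by 1.14 and Atf3 fell by 0.79, so that 5 of the 7 AP-1 genes were called. The others were Rgs1 (-1.68), Ccl3 (-1.63), Dusp1 (-1.04), Ier3 (-1.03), Cxcl2 (-0.94), Ccl4 (-0.75), Ier2 (-0.67) and Mcl1 (-0.44). Of the 6 NF-kB subunit and inhibitor genes 0 were among the 17. The probe sets of Rel, Relb, Nfkbie and Tnfaip3 were dim, as were those of the called genes Fosb, Atf3, Cxcl2 and Ptgs2. The difference between the roles was not tested. The differences of Rel, Gadd45b and Dusp6 shrank without that array, to 0.03, 0.02 and 0.35. The probe set fit called 21 of 63 member probe sets lower (5.27% of all) and 0 higher (5.98%). With mutant replicate 3 left out instead 0 members fell (background 0.637%) and Dusp2 alone rose (background 0.968%), by 1.40 ± 0.10 (adjusted p = 0.013). Leaving out any of the other 4 arrays called 0 members. With array weights 4 of 40 members were called (Fos, Egr1, Nr4a1 and Dusp2), against 10.4% of all genes, which is at the background.

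**Figure D4:**
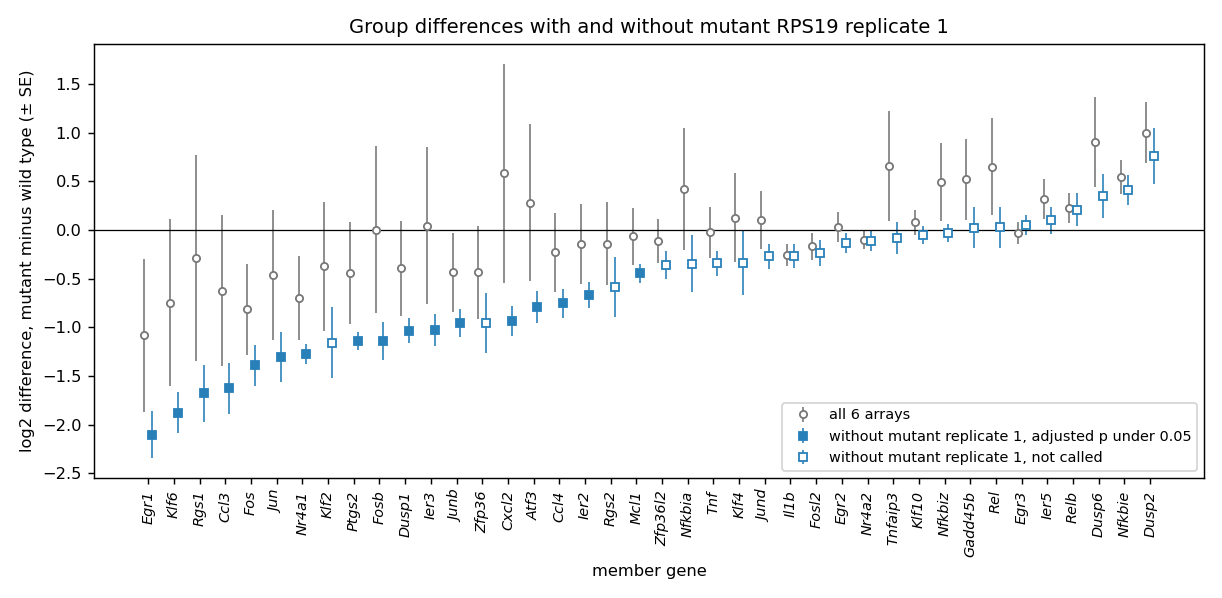
Log2 difference, mutant minus wild type, of each member with SE from limma, over all 6 arrays (grey open circles) and without mutant replicate 1 (blue squares, filled where the adjusted p was under 0.05). The 17 filled squares all lie below 0, and the grey bars are wider for most genes.

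Of 83 other immediate early, SRF, CREB, MAP kinase and NF-kB pathway genes 72 were measured. In the fit over genes 0 were called in either direction (0.331% of all genes, limma). An unadjusted p under 0.05 was found for 13, a share close to the 17.4% of all genes. The probe set fit called 1 probe set of Zfp36l1 (2.33% of all probe sets), whose difference in the fit over genes was 0.02. The median difference of the 72 genes was 0.16. The lowest p-values were those of Traf6, an adaptor of toll-like receptor signalling (0.37 ± 0.088, adjusted p = 0.10), the kinase gene Map3k7 (-0.395 ± 0.095, adjusted p = 0.10), the SRF partner Elk4 (0.54 ± 0.14, adjusted p = 0.13) and the IkB kinase gene Ikbkb (0.42 ± 0.12, adjusted p = 0.14). On mutant array 1 the list stood at a median of 0.28, with 12 of 72 at least 2-fold above wild type (1.77% of all genes), and on arrays 2 and 3 at 0.09 and -0.06. Il6, the interleukin-6 gene, was chosen after its values were seen. It read 2.70 to 2.96 in wild type and 7.45, 2.62 and 2.48 in mutant samples. Array 1 alone was high, and the other values were not shown to be above background. Without mutant replicate 1, 5 of the 72 rose (Dusp8, Dusp16, Elk4, Traf2 and Birc2; 5.84% of all genes) and 1 fell (Rps6ka3; 3.7%), which is near the background. Without mutant replicate 3, 3 rose (Birc3, Sgk1 and Phlda1; 0.968%) and 0 fell (0.637%).

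Markers of granulocytes moved with the members from array to array. Of 14 neutrophil marker genes 13 were measured, and 11 of these lay above all wild type arrays on mutant array 1 and below them on arrays 2 and 3 (4.95% of all genes). Their medians were 0.64, -0.65 and -1.03 on the 3 mutant arrays, and their mean level was 9.76 to 9.86 (log2) on the wild type arrays and 10.43, 9.27 and 8.81 on the mutant arrays. Elane, the neutrophil elastase gene, read 11.98 to 12.18 in wild type and 12.40, 11.14 and 10.71 in mutant samples, and the granule gene Ngp 10.90 to 11.09 against 11.70, 10.01 and 9.46. All 6 eosinophil, basophil and mast cell markers were above all wild type arrays on array 1 and below them on array 3, at medians of 1.47, -0.16 and -1.49. Their mean level was 6.53 to 6.74 on the wild type arrays and 8.07, 6.27 and 5.23 on the mutant arrays. Fcer1a, of the IgE receptor, read 5.93 to 6.29 in wild type and 7.54, 4.91 and 3.90 in mutant samples, and Prg2, the eosinophil major basic protein gene, 7.74 to 7.89 against 9.58, 7.92 and 7.14. The part of these cells in the members' values was not tested.

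The other lists had other medians. Monocyte and macrophage markers (12 measured) stood at medians of -0.22, -0.21 and -0.50 on the 3 mutant arrays. The list was split. In 3 of the 12 (Csf1r, Ccr2 and Vcam1) array 1 lay above and array 3 below all wild type arrays (11.3% of all genes). On array 1, 8 of the 12 lay below all wild type arrays (41.3% of all genes). Cd14, the lipopolysaccharide co-receptor gene, read 7.91 to 8.06 in wild type and 8.003, 6.28 and 5.23 in mutant samples, and the lysosomal marker Cd68 6.57 to 6.85 against 6.40, 6.45 and 5.33. B cell markers (10 measured) were at -0.05, 1.86 and 0.68, with Ms4a1 at 8.16 and Blnk at 9.59 on array 2 against 4.87 to 5.09 and 6.83 to 7.26 in wild type samples. Medians were -0.13, -0.01 and -0.12 for 11 T and NK cell markers (Gzma 0.65 and Thy1 0.37 as group differences, against -0.36 for Cd3d, -0.29 for Cd3e and -0.28 for Cd3g, which were chosen after their values were seen), -0.62, -0.20 and -0.86 for 4 dendritic (Cd209a -0.93, Batf3 -0.47), 0.75, 0.14 and 0.04 for 7 megakaryocyte (Vwf 1.48, Ppbp 0.89), -0.03, 0.03 and -0.42 for 4 plasma cell (Jchain -2.88, Sdc1 0.58), -0.13, -0.18 and -0.16 for 4 endothelial (Pecam1 -0.46, Kdr -0.15) and -0.47, 0.10 and 0.09 for 7 erythroid markers (Klf1 -0.39, Alas2 0.35). By limma over genes Vwf was called in these lists (adjusted p = 0.036), and 0 other markers were. The probe set fit called 1 probe set each of Vwf, Tfrc, Slc4a1, Cd209a and Jchain (2.33% of all probe sets). The 9 measured heat shock genes, which cell handling can also induce, had medians below 0 on all mutant arrays, of -0.37, -0.44 and -0.36. In the fit over genes Hspa1b differed by -0.83 and Hspa1a by -0.81 without being called (adjusted p = 0.082 and 0.064, limma). In the probe set fit 2 probe sets of Hspa1b and 1 each of Hspa1a, Hspa8 and Hspe1 were called (2.33% of all probe sets). Of the 9 genes 7 had mutant values below all wild type values (12.7% of all genes).

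**Figure D5:**
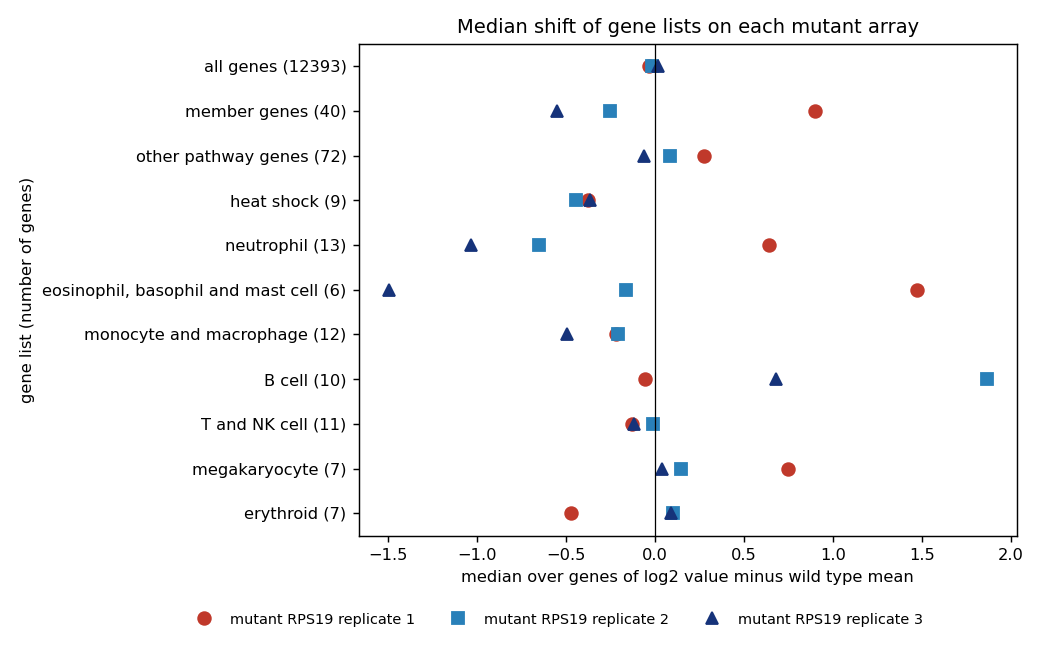
Median over each gene list of the log2 value minus the wild type mean on mutant replicates 1, 2 and 3 (circle, square and triangle), with the number of genes in brackets. The members and the neutrophil and eosinophil, basophil and mast cell lists have the circle to the right of 0 and the triangle to the left, while all 3 points of the heat shock list lie between -0.44 and -0.36.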

How the data were processed

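The authors deposited log2 values with 1 column per array, and the submitters' processing notes name GCOS, Affymetrix Expression Console and RMA. RMA corrects background, quantile normalises across arrays and summarises each probe set. Neither versions nor the arrays of each normalisation run are stated. Tests omitted 64 control probe sets. The platform annotation gave 1 symbol to 20380 of 22626 probe sets, several to 691 and none to 1555. A gene was represented by its brightest probe set (mean of 6 arrays).

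The test was two-sided, without covariates, by lmFit and eBayes (limma 3.58.1, R 4.3.3), with Benjamini-Hochberg adjustment over all genes or all probe sets and a threshold of 0.05. Differences between arrays and list medians are descriptions. In a test on simulated data for this comparison (200 of 12393 genes changed, equal spread in the groups) 76.5% were recovered at a log2 change of 1 (10 false calls) and 97.5% at 2. With each group's own spread, 83% and 94.5% were recovered with 30 and 29 false calls. The changed genes were drawn at random from all genes, with errors drawn separately for each gene. The median mutant SD was 0.18 over all genes and 0.99 over the members, so these shares do not give the recovery for members. The members and lists were chosen with earlier results of these data known. Every measured member is named with its difference. Values on every array are given for the 12 members with the largest difference, for the brightest of each role, and for others said to be chosen after their values were seen. Of the other pathway genes the 4 with the lowest p were named, and of each marker list and of the heat shock list the 2 with the largest difference, besides Tfrc and Hba-a1 as defining erythroid markers. Genes of these lists with a probe set called in the probe set fit were named too. So were the monocyte and macrophage genes above all wild type arrays on mutant array 1 and below them on array 3. Alternatives covered normalisation, centring, a filter on dim features, the variance model, array weights, averaged probe sets, a replicate block and each array left out. Python 3.11.15 and pandas 2.3.3 were used. The number of arrays limits the precision.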

Additional observations from a re-analysis of the deposited data

How the results depend on the processing

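The members' result depended on single mutant arrays. Member genes called numbered 0 under all settings run except array weights (4: Fos, Egr1 and Nr4a1 lower, Dusp2 higher; 10.4% of all genes were called, so that 4 of 40 is at the background) and left-out arrays (0 to 17), and member probe sets 0 except for array weights (6, against 11.8% of all probe sets) and left-out arrays (0 to 21). Array weights gave mutant replicate 1 a weight of 0.22. Other pathway genes called numbered 12 with array weights and 0 to 6 with an array left out. Over all genes 41 were called, against 62 with repeated quantile normalisation without controls, 117 among brighter features, 96 with the trended robust prior, 1292 with array weights and 0 to 1182 with an array left out. Over all probe sets 528 were called, against 2667 with array weights and 36 to 2544 with an array left out. With the replicate block 7 genes and 112 probe sets were called, 0 of them members. Same-numbered arrays did not deviate together (r over genes 0.061, 0.022 and 0.082), so the numbers are not read as pairs, and not every array correlated best with its own number.

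The median of the members on mutant array 1 was 0.79 with median centring and 0.83 on the mean of all probe sets. On array 2 it was -0.35 with centring and -0.39 among brighter features, and on array 3 it was -1.09 among brighter features and -0.60 to -0.53 with an array left out. All kept their sign, whereas the median of the group difference ran from -0.40 to 0.22 with an array left out. Of 266 single-member values under settings other than left-out arrays 10 changed sign: Fosb at -0.0105 with quantile normalisation, -0.0655 with centring and -0.65 with array weights, Egr2 at -0.0389 and -0.0821 and Ier3 at -0.0225 and -0.50 with centring and array weights, and Jund (-0.0506), Atf3 (-0.51) and Cxcl2 (-0.39) with array weights. The cause was not tested.

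With an array left out 25 members changed sign. Their ranges were -1.14 to 0.73 for Fosb, -1.31 to 0.22 for Jun, -0.27 to 0.39 for Jund, -0.79 to 0.96 for Atf3, -0.13 to 0.12 for Egr2, -0.12 to 0.0498 for Egr3, -1.16 to 0.38 for Klf2, -0.34 to 0.69 for Klf4, -1.88 to 0.0138 for Klf6, -0.0482 to 0.17 for Klf10, -0.67 to 0.22 for Ier2, -1.03 to 0.72 for Ier3, -1.04 to 0.0205 for Dusp1, -0.96 to 0.14 for Zfp36, -0.36 to 0.11 for Zfp36l2, -0.35 to 1.09 for Nfkbia, -0.0355 to 0.76 for Nfkbiz, -0.0834 to 1.06 for Tnfaip3, -0.34 to 0.21 for Tnf, -0.94 to 1.35 for Cxcl2, -1.63 to 0.13 for Ccl3, -0.75 to 0.14 for Ccl4, -1.68 to 0.69 for Rgs1, -0.59 to 0.38 for Rgs2 and -0.44 to 0.17 for Mcl1. The other 15 kept their sign, with ranges of -1.39 to -0.33 for Fos, -0.24 to -0.0594 for Fosl2, -0.96 to -0.0738 for Junb, -2.10 to -0.33 for Egr1, 0.0994 to 0.53 for Ier5, -1.28 to -0.39 for Nr4a1, -0.14 to -0.0374 for Nr4a2, 0.76 to 1.40 for Dusp2, 0.35 to 1.39 for Dusp6, 0.0264 to 1.14 for Rel, 0.0922 to 0.37 for Relb, 0.41 to 0.69 for Nfkbie, -0.36 to -0.18 for Il1b, -1.14 to -0.0885 for Ptgs2 and 0.0213 to 0.96 for Gadd45b. The control ratios kept their sign under every alternative run.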
